A study of Mus musculus with 4 samples.

Results

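Resting Foxp3+ CD25+ thymocytes were taken from 2 libraries of CD25+ cells, 1 from wild-type (WT) and 1 from PD-1 knockout-labelled mice, and numbered 373 of the 23210 barcodes kept in the whole series. The cells were selected on their own transcript counts. A member held at least 1 UMI (unique molecular identifier, 1 captured transcript) of Foxp3 and at least 1 of Il2ra, no UMI of Ptcra, fewer than 3 of Mki67, and none of Nr4a1, Egr2 and Tnfrsf9. Barcodes entered with at least 500 genes and under 10% mitochondrial UMIs. The WT library gave 243 members and the knockout-labelled library 130. Foxp3+ CD25+ cells with a UMI of Nr4a1, Egr2 or Tnfrsf9, which met every other limit, are called signalled here (192 WT and 107 knockout-labelled cells).

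Both groups were C57BL/6J mice aged 3 weeks, and each library pooled the thymi of 4 animals. Cells bearing CD8 were depleted, and CD4+ cells positive for heat-stable antigen (HSA, the CD24 protein) and negative for CD73 were sorted by CD25. The matching CD25- libraries were not compared here. Each group is 1 library: no difference between groups or populations was checked on a replicate, and no test was run. Intervals are at 95% and cover counting error only.

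Regulatory T cells restrain responses to self, and Foxp3 is the transcription factor that defines them. In the thymus they arise from CD4 single-positive cells that bind self-antigen strongly, and they are known to pass through a CD25+ step in which IL-2, acting through STAT5, supports induction of Foxp3. IL-2 is read by a receptor whose alpha chain (CD25) is encoded by Il2ra and whose beta chain is encoded by Il2rb. T cell receptor engagement induces Nr4a and Egr factors within hours, so their transcripts report recent signalling. PD-1, encoded by Pdcd1, is an inhibitory receptor that appears after such signalling. Maturing thymocytes lose CD24 and gain Klf2 and its target S1pr1, which carries them out of the thymus.

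The WT CD25+ library kept 8215 barcodes (59339217 UMIs, median 5951) and the knockout-labelled one 10110 (78488935 UMIs, median 6169.5). Members were shallower, with a median of 3766 UMIs in WT (range 861 to 20518) and 3681 in knockout-labelled cells (984 to 17791). Pdcd1, the targeted gene (chromosome 1, 94038305 to 94052553, GRCm38), was at 15.7 CPM (UMIs of the gene per 1000000 UMIs of the summed cells) in the WT library and at 18.3 CPM in the knockout-labelled one. Reads from the 5' end need not cover a deleted part, which the labels do not name, so these levels check neither label. In both CD25+ libraries most barcodes carried Ptcra, the pre-TCR alpha chain of early thymocytes (5431 of 8215 and 7593 of 10110), although the sort asked for CD4+ cells. The 2 CD25+ libraries shared 118 barcode sequences, none of them between their members.

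Resting Foxp3+ cells made up 2.96% of kept WT barcodes (interval 2.60 to 3.35) and 1.29% of knockout-labelled ones (1.08 to 1.53), a share 2.30 times as large in the WT library (1.85 to 2.87). Among barcodes without Ptcra the shares were 8.73% (7.71 to 9.84) and 5.16% (4.33 to 6.1). Within the Foxp3+ CD25+ cells the intervals of the resting share overlapped, with 243 of 435 resting in the WT library (55.9%, 51.1 to 60.6) and 130 of 237 in the other (54.9%, 48.3 to 61.3). The 3 response transcripts were absent from 19 of 89 WT CD25+ Foxp3-negative cells with both Cd4 and Trac (21.3%, 13.4 to 31.3). In the knockout-labelled library they were absent from 6 of 65 (9.23%, 3.46 to 19). A limit of 0 UMIs is met more easily by a shallow cell, so the resting share carries the depth with it. After every cell was thinned to 1500 UMIs before the rule it was 74.2% of Foxp3+ CD25+ cells in WT and 75.7% in knockout-labelled cells. When members also had to hold Cd4 and Trac, 38 WT and 12 knockout-labelled cells were left, 43.7% and 36.4% of the Foxp3+ CD25+ cells that held both. The members' share of kept barcodes in the knockout-labelled library over that in WT was then 0.257, against 0.435 by the rule itself.

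At the limits of the rule, 65 WT and 37 knockout-labelled members held exactly 1 Foxp3 UMI, while 759 and 953 cells met all other limits with 0. Exactly 1 Il2ra UMI was held by 72 and 36 members, and 123 and 47 cells were just outside with 0. A single UMI of Nr4a1, Egr2 or Tnfrsf9 kept 76 WT and 39 knockout-labelled cells out. For Ptcra, 9 and 14 cells fell out by 1 UMI, and for Mki67, 1 cell in each library fell out at 3 UMIs. Foxp3 itself (X, 7573644 to 7595245) was at 676 CPM in WT and 675 CPM in knockout-labelled members, and Il2ra (chromosome 2, 11642807 to 11693193) at 1089.7 and 924 CPM. Both chose the cells, so these are descriptions.

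Among genes the rule did not use, Il2rb (chromosome 15, 78479256 to 78495271) was at 425 CPM in WT members and 507 CPM in knockout-labelled ones. It stood at 121 and 99.2 CPM in Foxp3-negative Cd4 and Trac cells and at 4.5 and 3.8 CPM in Ptcra+ barcodes. Of these populations the members had the highest level of the IL-2 receptor beta chain in each library. A UMI of Il2rb was found in 65.4% of WT and 76.2% of knockout-labelled members, against 40.4% and 43.1% of the Foxp3-negative cells. At 1500 UMIs a cell those shares were 40.3% and 47.6% against 14.6% and 12.7%. In Ptcra+ barcodes, which should lack the gene, they were 0.390% and 0.253% (1.53% and 1.59% unthinned; median depths 6215 and 6245 UMIs), so the members' shares lay above that background. Thinning left out 10 WT and 6 knockout-labelled members.

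Ikzf2 (chromosome 1, 69531214 to 69687245) encodes Helios, a factor often used to mark thymus-derived Tregs, and it did not separate the members in the same way. Its level was 549 CPM in WT and 377 CPM in knockout-labelled members, below the 763 and 876 CPM of the Foxp3-negative Cd4 and Trac cells. In Ptcra+ barcodes Ikzf2 was at 121 and 123 CPM. With every cell at 1500 UMIs, 48.5% of WT and 37.1% of knockout-labelled members held an Ikzf2 UMI, against 51.7% and 73.0% of Foxp3-negative cells and 16.4% and 15.3% of Ptcra+ barcodes. Signalled Foxp3+ cells were higher than members in both libraries, at 1008 CPM (1.84-fold, 1.66 to 2.04) and 649 CPM (1.72-fold, 1.45 to 2.05). In the order of levels the members thus came after signalled cells and all Foxp3-negative cells for Ikzf2, and before both for Il2rb. Of those Foxp3-negative cells 70 of 89 and 59 of 65 held a response transcript, and in the 19 WT ones that held none Ikzf2 was 2.61-fold below the members (1.82 to 3.88).

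**Figure D1:**
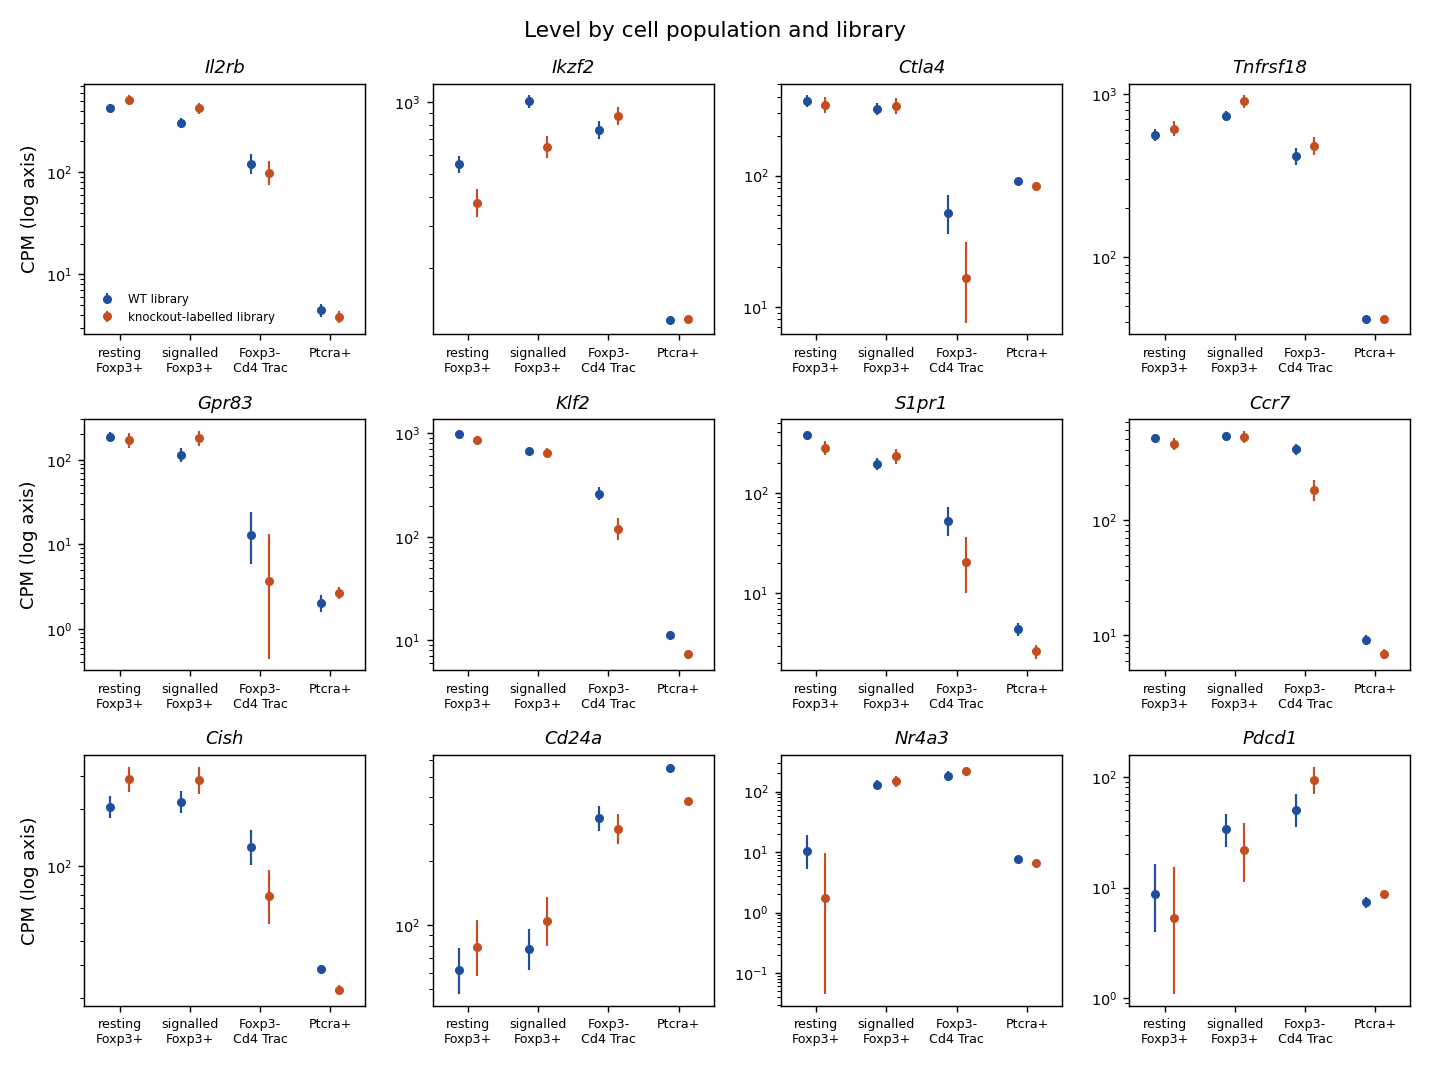
Levels of 12 genes in CPM (log axes) in resting and signalled Foxp3+ cells, Foxp3-negative Cd4 and Trac cells and Ptcra+ barcodes of the WT (blue) and knockout-labelled (orange) library, each point with its exact Poisson 95% interval. Il2rb is highest in the resting Foxp3+ cells of both libraries, at 425 and 507 CPM, while Ikzf2 is at 549 and 377 CPM there and at 1008 and 649 CPM in signalled cells.

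Genes that change as thymocytes mature set the members apart from Ptcra+ barcodes. Klf2 (chromosome 8, 72319033 to 72321656), the factor that drives egress receptors, was at 997 and 866 CPM in members and at 11.3 and 7.3 CPM in Ptcra+ barcodes. S1pr1 (chromosome 3, 115710433 to 115715072), the egress receptor itself, was at 375 and 280.5 CPM against 4.4 and 2.6 CPM. Cd24a (chromosome 10, 43578284 to 43584265), which encodes the HSA protein on which the cells were sorted, was at only 61.5 and 78.9 CPM in members and at 551 and 384 CPM in Ptcra+ barcodes. A Cd24a UMI was found in 19 of 243 WT and 11 of 130 knockout-labelled members. Cd4, the co-receptor the sort selected on, had a UMI in 118 of 243 and 60 of 130 members, and Trac, the constant part of the receptor alpha chain, in 73 and 29. In Ptcra+ barcodes Cd4 had one in 188 of 5431 and 262 of 7593. A V segment of the T cell receptor beta chain had a UMI in 96.3% of WT and 95.4% of knockout-labelled members, and one of the alpha chain in 73.3% and 69.2%. In Ptcra+ barcodes the beta-chain shares were 75.8% and 64.2%, and the alpha-chain shares 20.3% and 15.9%. The most used alpha-chain segment in Ptcra+ barcodes was Trav15-2-dv6-2, also named for the delta chain, with 31.9% and 22.8% of the segment UMIs. Their alpha-chain share therefore need not show a receptor alpha chain. Members spread over 62 alpha-chain V segments in WT and 54 in knockout-labelled cells, and the most used took 6.7% and 7.0% of the segment UMIs.

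**Figure D2:**
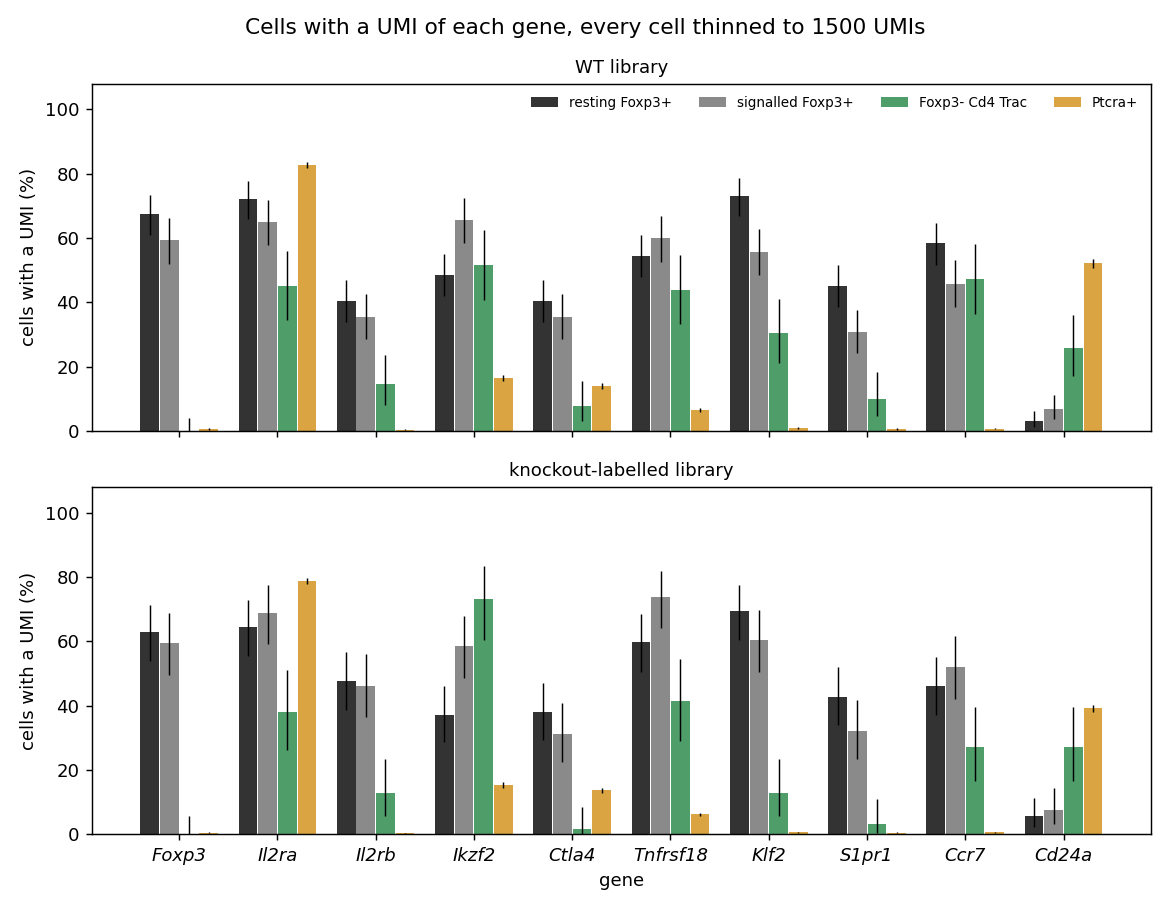
Share of cells with at least 1 UMI of each of 10 genes after every cell was thinned to 1500 UMIs, by population, for the WT (top) and knockout-labelled (bottom) library, with exact binomial 95% intervals. For Il2rb the members' bars (40.3% and 47.6%) stand above the Foxp3-negative bars (14.6% and 12.7%), and the Ptcra+ bars are near 0.

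The members were not uniform. Il2rb was at 303 CPM in WT and 346 CPM in knockout-labelled members with exactly 1 Foxp3 UMI, and at 509 and 693 CPM in those with 3 or more. Cells with 2 Foxp3 UMIs were at 384 CPM in WT and 282 CPM in knockout-labelled cells, so only the WT classes stood in order. Cish, a STAT5 target, was at 186 CPM in WT members with 1 Foxp3 UMI, 142 CPM with 2 and 244 CPM with 3 or more, against 226, 114 and 398 CPM in knockout-labelled members. Ctla4 was at 281, 414 and 402 CPM in the 3 WT classes and at 346, 297 and 371 CPM in the knockout-labelled ones. Foxp3 chose these cells, so the classes are a description. Their median depths were 3497, 3463 and 4039 UMIs in WT and 3560, 3277.5 and 3938 UMIs in knockout-labelled members. Dntt, a gene of early thymocytes, was at 355, 69 and 132 CPM in the WT classes and at 293, 304 and 62.4 CPM in the knockout-labelled ones. Without the cells that held 3 or more UMIs of Rag1 and Dntt, Il2rb was at 377, 404 and 558 CPM in WT and at 443, 374 and 738 CPM in knockout-labelled members.

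A few members carried transcripts of early thymocytes. With 3 or more UMIs of Rag1, a recombinase, and Dntt, the terminal transferase, counted as 1 sum, there were 11 such cells, called early-gene cells here, in WT (median 10399 UMIs) and 5 in knockout-labelled members (median 16784 UMIs). They held 91.9% and 90.2% of the members' Dntt UMIs and 79.7% and 77.8% of their Cd24a UMIs, but only 3.1% and 2.3% of their Foxp3 UMIs. Scrublet, a doublet caller, marked 5 of the 11 and 3 of the 5, against 2 of the other 232 and 2 of the other 125. They stay in the counts below because the rule admits them, and the main values that moved by over 1.5 times without them are given both ways. Without them Cd24a was at 14.1 CPM in WT and 20.5 CPM in knockout-labelled members. Lists of markers of other cells were summed in members. The 12 double-negative genes came to 492 CPM in WT and 468 CPM in knockout-labelled members, and to 182 and 193 CPM without the early-gene cells. The 9 double-positive genes came to 435 and 475 CPM (150 and 224 CPM without those cells), and the 7 gamma-delta genes to 195 and 179 CPM (43.4 and 53.4 CPM without them). The 8 innate genes came to 88.4 and 98.2 CPM, and to 18.4 and 12.3 CPM without the early-gene cells, with Zbtb16, Klrb1c, Klrd1 and Ncr1 at 0 in both libraries. Gzma, of that list, held 3 UMIs in WT and 29 in knockout-labelled members (17.6-fold, 5.47 to 90.5). The early-gene cells held all 3 WT UMIs and 28 of the 29 knockout-labelled ones. Without those cells 0 and 1 UMIs were left, so the ratio rests on the early-gene cells. The 7 B cell genes came to 68.2 and 117 CPM, with Ms4a1, Igkc and Pax5 among those at 0, and the 10 myeloid and dendritic genes to 167 and 147 CPM. The 6 stromal and erythroid genes came to 149 and 172 CPM. Highest were the 8 conventional CD4 genes, Cd4 and Trac among them, at 2050 and 1913 CPM. They came to 2523 and 2176 CPM in the Foxp3-negative cells, which had to hold both Cd4 and Trac.

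Members were first set against Foxp3-negative cells that also lacked the 3 response transcripts. These were few (19 WT cells with 147713 UMIs, and 6 knockout-labelled cells with 27089 UMIs), so only large differences could be seen, above all in the second library. They had to carry Cd4 and Trac, which members did not. Genes entered each comparison at 20 CPM or more in either population, and counted as higher or lower at a ratio of at least 1.5. In WT, 19.5% of 7466 genes were higher in members and 25% lower. In the knockout-labelled library, 10.6% of 7202 genes were higher and 33.3% lower, and the median gene was at a log2 ratio of -0.40, against -0.08 in WT. When ratios were centred on that median, 48.1% of the genes that differed were higher in knockout-labelled members, against 24.2% uncentred. In that library 1726 of the 7202 genes had 0 UMIs in 1 population and no usable bound, so no ratio, against 21 in WT. The median covers only genes with UMIs in both. In the 6 cells 1 UMI is 36.9 CPM, enough for a gene to enter, while 0 UMIs were set at 3 for a bound. The part of this in the uneven split was not tested.

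Of 19 Treg genes, a list that leaves out Foxp3 and Il2ra, 14 entered in each library. In WT, 12 were higher and none lower in members, and in knockout-labelled cells 8 were higher and none lower. The median log2 ratios were 1.26 and 1.03. Ctla4 (chromosome 1, 60887000 to 60915832), an inhibitory receptor on which Treg function depends, was 3.92-fold higher in WT (2.31 to 7.24) and 4.70-fold in knockout-labelled members (1.28 to 39.1). Il2rb was 2.51-fold (1.68 to 3.92) and 2.29-fold higher (1.04 to 6.28). Tnfrsf18, which encodes the co-stimulatory receptor GITR, was 2.29-fold (1.64 to 3.31) and 4.16-fold higher (1.61 to 15.3). The interval of Gpr83, a G protein-coupled receptor typical of Tregs, excluded no difference in WT (9.18-fold, 3.09 to 44.9) but not in the knockout-labelled library (4.65-fold, 0.82 to 186). Ikzf2 was higher in WT members (2.61-fold, 1.82 to 3.88), while in the knockout-labelled library it was at 377 CPM against 554 CPM in 6 cells.

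With 1.5-fold asked for in the same direction in both libraries and both intervals excluding no difference, 15 genes were higher and 16 lower in members. Beside Ctla4, Tnfrsf18 and Il2rb, the higher genes included Rgs1, a brake on chemokine receptor signalling (3.47-fold, 1.95 to 6.78, and 7.69-fold, 1.36 to 306), and Pim1, a STAT5-induced kinase (2.08-fold, 1.26 to 3.71, and 6.55-fold, 1.16 to 261). Klf2 was 2.02-fold (1.59 to 2.60) and 2.35-fold higher (1.26 to 4.92). The MHC class I genes H2-Q7, whose product marks mature thymocytes, and H2-K1 were 3.83-fold (1.82 to 9.66) and 2.03-fold (1.76 to 2.34) higher in WT members. In knockout-labelled members they were 3.10-fold (1.05 to 15.2) and 1.58-fold (1.19 to 2.13) higher. Among the lower genes, Itm2a, a membrane protein induced during positive selection, was 3.58-fold lower in WT and 3.15-fold lower in knockout-labelled members. Tcf7, which encodes the factor TCF-1, was at 385 and 270.0 CPM in members against 731 and 665 CPM. Ckb, which encodes creatine kinase B, was 9.39-fold and 5.54-fold lower. Ybx1, Srsf3, Hnrnpa3 and Alyref, which bind or process RNA, were also in this group. Without the 11 and 5 cells with Rag1 and Dntt, and 4 such cells of the 19, the WT ratios of Ctla4 and Il2rb were 2.26 and 1.87. Those of Tnfrsf18 (1.44) and Klf2 (1.34) no longer reached 1.5-fold, nor did Ybx1, Srsf3 and Hnrnpa3, whose log2 ratios were -0.39, -0.52 and -0.38. In the knockout-labelled library, against the 40 resting Foxp3-negative cells with Cd4 or Trac, Itm2a turned to a log2 ratio of 0.45 and Ckb stood at -0.23. With cells weighted equally, the log2 ratio of Il2rb in the knockout-labelled library was 0.03.

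Of 10 cell cycle genes that entered in WT, all 10 were lower in members (median log2 ratio -2.34), and 5 of 6 without the early-gene cells. The 14 genes of that list summed to 377 CPM in WT members and 1456 CPM in the 19 Foxp3-negative cells, of which 3 were marked as doublets. The part of cycling cells and doublets in this comparison was not tested. In the knockout-labelled library 9 cell cycle genes entered, none of them past 1.5-fold, most with no UMI in the 6 cells. Genes with 0 UMIs there could seldom be given a ratio, so this count does not show that none differed. Without the early-gene cells 5 entered, of which 2 were lower. Of 12 genes of maturity and egress, 9 were higher and 1 (Il7r, the IL-7 receptor) lower in WT members, and 5 were higher and none lower in knockout-labelled ones. Without the early-gene cells the WT counts were 4 and 1. Of 15 IL-2 and STAT5 genes, 5 were higher and none lower in WT, and 5 were higher and 1 lower in the other library. Of 9 interferon genes, 5 were higher in each, with none lower in WT and 1 in knockout-labelled members. Without the early-gene cells 3 were higher in WT, and in knockout-labelled members none was lower.

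Against all Foxp3-negative Cd4 and Trac cells, signalled ones included (89 WT and 65 knockout-labelled), the counts were larger. Of those cells, 70 and 59 held a response transcript, so members differed from them in these by construction. In WT, 20.4% of 7120 genes were higher in members and 22.7% lower, and in the knockout-labelled library 24.8% of 7131 were higher and 28.8% lower. The same named-gene rule was passed by 650 genes higher and 835 lower in members.

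Genes of maturity and egress were mostly higher in members. Of 12 such genes, 10 were higher in WT and all 12 in the knockout-labelled library, with none lower (median log2 ratios 1.67 and 2.51, against -0.03 and -0.07 over all genes). S1pr1 was 7.09-fold (5.05 to 10.2) and 13.9-fold higher (7.55 to 28.4), and Klf2 3.81-fold (3.26 to 4.49) and 7.25-fold (5.59 to 9.55). Ccr7 (chromosome 11, 99144196 to 99155077), the receptor that leads thymocytes into the medulla, was at 510.2 CPM against 407 CPM in WT, short of 1.5-fold, and 2.52-fold higher in the knockout-labelled library. Cd24a was 5.18-fold (3.91 to 6.95) and 3.61-fold lower (2.57 to 5.15), and 19.6-fold and 13.7-fold lower without the early-gene cells.

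Most genes of the IL-2 and STAT5 pathway were higher too. Of the 15 genes, 10 of 15 that entered were higher in WT and 10 of 14 in the knockout-labelled library, with none lower in either. Cish (chromosome 9, 107296026 to 107302784), a feedback inhibitor of the IL-2 receptor, was at 206 and 287 CPM in members against 126 and 69.8 CPM, 1.64-fold (1.27 to 2.12) and 4.12-fold higher (2.88 to 6.03). Socs1 was 2.47-fold and 3.05-fold higher, and Socs2 5.65-fold (2.24 to 18.3) and 16.2-fold (2.54 to 678), the latter from 1 UMI in the Foxp3-negative cells. Bcl2, which protects cells from death, was 1.97-fold (1.66 to 2.36) and 3.72-fold higher (2.77 to 5.07). Its antagonist Bcl2l11, which encodes BIM, was 5.03-fold (3.40 to 7.61) and 11.3-fold lower (6.23 to 22.4).

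The Treg list was divided in this comparison. In WT, 8 of 14 genes were higher and 1, Tnfrsf1b, was lower, and in the knockout-labelled library 8 were higher and 3 lower. Without the early-gene cells 3 were lower in WT and 2 in the other library, where Tnfrsf4 no longer reached 1.5-fold. Gpr83 (chromosome 9, 14860210 to 14870789) stood first among the genes that could be ranked, which leaves out those of the member rule, by the smaller of the 2 libraries' ratios, 14.5-fold (7.48 to 32.2) and 46.8-fold (12.6 to 392). Ctla4 was 7.23-fold (5.13 to 10.5) and 21.0-fold higher (10.8 to 46.6). Flicr, a long noncoding RNA beside Foxp3, was at least 8.07-fold higher in WT, where the Foxp3-negative cells held none, and 7.64-fold higher in the knockout-labelled library (2.32 to 39.6). The WT bound sets those cells at 3 UMIs over the population. The 3 lower ones in the knockout-labelled library were Ikzf2 (2.32-fold, 1.97 to 2.74), Tnfrsf4, which encodes OX40 (1.52-fold, 1.33 to 1.75), and Swap70. Nrp1 was 4.79-fold and 4.30-fold higher, and 17.2-fold higher in WT (4.55 to 146) without the early-gene cells, where 2 UMIs were left in the Foxp3-negative cells.

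Of 20 response genes outside the rule, 11 of 18 that entered were lower and 1, Junb, was higher in WT members, and 13 of 19 were lower and 1, again Junb, higher in knockout-labelled ones. Xcl1, a chemokine, was at 3.84 CPM in WT members against 400.1 CPM (104-fold lower, 40.2 to 385), and at 0 UMIs against 702 in the knockout-labelled library, at least 245-fold lower. Ccr8, a chemokine receptor, was at 0 UMIs in WT members (at least 68.4-fold lower) and 26.8-fold lower in knockout-labelled ones. Nr4a3, not used by the rule, was 17.2-fold (9.28 to 35.3) and 123-fold lower (21.6 to 4882). Cd40lg, a helper molecule of conventional CD4 cells, was 11.6-fold and 11.8-fold lower. Of 12 PD-1 and co-inhibitory genes, 1 (Cd96) was higher and 6 of 10 lower in WT, and 1 (Cd96) was higher and 8 of 11 lower in the knockout-labelled library, where without the early-gene cells 2 (Cd96 and Vsir) were higher. Pdcd1 was at 8.65 and 5.26 CPM in members (9 and 3 UMIs) against 50 and 93.7 CPM. Btla, another inhibitory receptor, was at 26.9 and 21.0 CPM against 80.0 and 73.5 CPM. Of 12 stress genes, 6 were lower and 3 higher of 11 in WT, and 5 lower and 3 higher of 10 in the knockout-labelled library. Hspa8, a chaperone, was 2.03-fold (1.91 to 2.17) and 1.96-fold lower (1.65 to 2.34). Against only the 19 resting Foxp3-negative WT cells, 5 of 12 response genes were higher in members and 4 lower. For co-inhibitory genes it was 3 and 2 of 8, and over all genes 19.5% and 25%. Without the early-gene cells, 4 of 11 response genes were higher and 2 lower in WT, and 3 and 4 of 14 in the knockout-labelled library. For co-inhibitory genes the counts were then 4 and 2 of 7, and 1 and 4 of 9.

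Interferon-induced genes were among those higher in members than in all Foxp3-negative Cd4 and Trac cells. Of 11 such genes in the matrices 9 entered. In WT, 8 were higher and in the knockout-labelled library all 9, with none lower (median log2 ratios 1.2 and 2.15). The Foxp3-negative cells were deeper than members (medians 6783 and 7553 UMIs) and most held a response transcript, and the part of either in these ratios was not tested. Ifit3 was at 73.0 and 99.9 CPM in members against 14.3 and 9.18 CPM, 5.11-fold (2.63 to 11.1) and 10.9-fold higher (4.40 to 34.8). Iigp1, an immunity-related GTPase, was 6.89-fold (3.34 to 16.5) and 9.68-fold higher (5.58 to 18.2). In Ptcra+ barcodes Ifit3 was at 1.53 and 2.97 CPM. Ifit3 transcripts were unevenly held, in 32 of 243 WT and 26 of 130 knockout-labelled members.

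The promoters of 3 such genes are shown because Ifit1 and Ifit3 were higher in members than in signalled cells and in all Foxp3-negative Cd4 and Trac cells, and Oas1a differed between the libraries. Against the 19 resting Foxp3-negative WT cells, Ifit1 was at 163 against 183 CPM. Each line gives the 250 bases before the RefSeq start (GRCm38.p6), 5′ to 3′ on the gene's strand: Ifit1 at chr19:34640639-34640888 and Ifit3 at chr19:34583279-34583528, both on the plus strand, and Oas1a at chr5:120907526-120907775 on the minus strand. Capitals mark matches to GAAA and GAAA parted by any 2 bases, which on the opposite strand read TTTC and TTTC, the core of the element bound by interferon-activated factors (searched on both strands).
Ifit1: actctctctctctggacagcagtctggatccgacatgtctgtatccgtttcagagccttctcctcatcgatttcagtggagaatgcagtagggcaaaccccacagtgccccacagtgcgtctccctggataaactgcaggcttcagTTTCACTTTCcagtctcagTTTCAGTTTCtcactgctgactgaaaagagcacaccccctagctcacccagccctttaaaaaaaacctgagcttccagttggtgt
Ifit3: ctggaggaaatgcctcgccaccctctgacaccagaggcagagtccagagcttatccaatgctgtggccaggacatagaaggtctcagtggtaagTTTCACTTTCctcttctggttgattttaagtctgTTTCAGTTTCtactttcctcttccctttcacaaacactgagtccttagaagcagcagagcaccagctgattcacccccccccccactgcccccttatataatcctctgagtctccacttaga
Oas1a: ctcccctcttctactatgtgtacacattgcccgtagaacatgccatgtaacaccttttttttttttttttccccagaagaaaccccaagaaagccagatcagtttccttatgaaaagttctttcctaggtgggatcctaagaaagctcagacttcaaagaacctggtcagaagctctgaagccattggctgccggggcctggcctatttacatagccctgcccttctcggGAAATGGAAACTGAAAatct
Each promoter held 2 matches. They began 104 and 85 bases upstream of the start in Ifit1, 156 and 122 in Ifit3, and 20 and 14 in Oas1a, where the 2 overlap. Of 24834 promoters of that length, 726 (2.92%) held a match. RefSeq entries were found for 7 of the 12 genes of the interferon list, with 9 promoters, of which 4 held one (Ifit1, Ifit3, Isg15 and Stat2). A match is a description of the letters and does not show that a factor was bound in these cells.

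Resting members were next set against signalled Foxp3+ cells of the same library (1047113 and 552796 UMIs). The rule itself made this split by Nr4a1, Egr2 and Tnfrsf9, and the signalled cells were deeper (medians 4696.5 and 4573 UMIs), so the values describe the split and nothing is read from their number. In WT, 9.68% of 6837 genes were higher in members and 7.9% lower, and in the knockout-labelled library 11.4% of 6743 were higher and 12% lower. Of 20 response genes that the rule did not use, none was higher in members, while 11 of 18 that entered were lower in WT and 11 of 16 in knockout-labelled cells (median log2 ratio -1.24 in both). Nr4a3 was at 10.6 and 1.75 CPM in members against 130 and 148 CPM, 12.3-fold (6.65 to 25.2) and 84.6-fold lower (14.8 to 3382). Egr1 was still found in members at 72.1 and 49.1 CPM, 2.99-fold and 2.40-fold below signalled cells. Its log2 ratio turned to 0.76 in WT with Cd4 and Trac required, and to 0.68 in knockout-labelled cells thinned before the rule. Cd83, an activation marker, was 7.82-fold and 8.05-fold lower, and Nfkbid, an inhibitor of the NF-kB family, 3.09-fold (2.00 to 4.91) and 8.94-fold lower (3.84 to 25.5). Of 14 NF-kB genes, 6 were lower and 1 higher in WT, and 8 lower and none higher in knockout-labelled members. Against the 19 resting Foxp3-negative WT cells, 7 of the 14 were instead higher in members and none lower. Without the early-gene cells 4 of 13 were higher there and none lower, and in the knockout-labelled library 4 were higher and 4 lower.

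Among 14 Treg genes, 2 were higher and 4 lower in WT members than in signalled cells, and 8 lay within 1.5-fold. For knockout-labelled members none was higher, 3 were lower and 11 lay within 1.5-fold. Of all genes, 9.68% were higher and 7.9% lower in the WT comparison, against 11.4% and 12% in the other. The counts thus do not show Treg genes to be less changed than genes at large. Ctla4 was at 372 and 347 CPM in members and at 323 and 340.1 CPM in signalled cells (ratios 1.15, 0.99 to 1.34, and 1.02, 0.83 to 1.25). Cish was at 206 and 287 CPM against 218 and 284 CPM (ratios 0.94, 0.78 to 1.14, and 1.01, 0.81 to 1.27). Il2rb was at 425 and 507 CPM against 302 and 420 CPM (ratios 1.41, 1.22 to 1.63, and 1.21, 1.01 to 1.44), short of 1.5-fold. Klf2 was at 997 and 866 CPM against 672 and 653 CPM (ratios 1.48 and 1.33), and its WT ratio was 1.59 without the early-gene cells. Tnfrsf4 was lower in members of both libraries, 1.93-fold (1.75 to 2.13) and 2.31-fold (2.04 to 2.62). Ccr8 was at 0 UMIs in WT members against 67 UMIs in signalled cells (at least 22.2-fold lower), and 6.19-fold lower in the knockout-labelled library. Itm2a was 2.13-fold and 1.80-fold lower. S1pr1 was higher in WT members (375 against 193 CPM, 1.94-fold, 1.63 to 2.31) and at 280.5 against 232 CPM in knockout-labelled ones. Socs3, a STAT-induced inhibitor, was 5.20-fold higher in WT members (2.14 to 15.2) and at 45.6 against 34.4 CPM in knockout-labelled ones.

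Interferon genes were also part of this difference. In WT, 7 of 9 were higher in resting than in signalled cells and in the knockout-labelled library 4 of 9, with none lower. Ifit3 was 2.25-fold (1.48 to 3.48) and 2.12-fold higher (1.31 to 3.52), Ifit1 1.64-fold and 1.88-fold, and Irf7, an interferon-induced factor, 1.69-fold and 1.57-fold. Without the early-gene cells 7 and 5 of 9 were higher. In the knockout-labelled library the log2 ratios of Ifit3, Ifit1 and Irf7 turned to -0.64, -1.10 and -0.50 after thinning before the rule, and that of Ifit3 to -1.74 with Cd4 and Trac required, which left 12 members. Other genes at the top of this ranking rested on those cells. Plac8, 2.33-fold higher in WT members, was at 0.83 of the signalled level without them, and Hspa1a, Cpa3 and Tmem121 then fell below the level needed to enter.

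**Figure D3:**
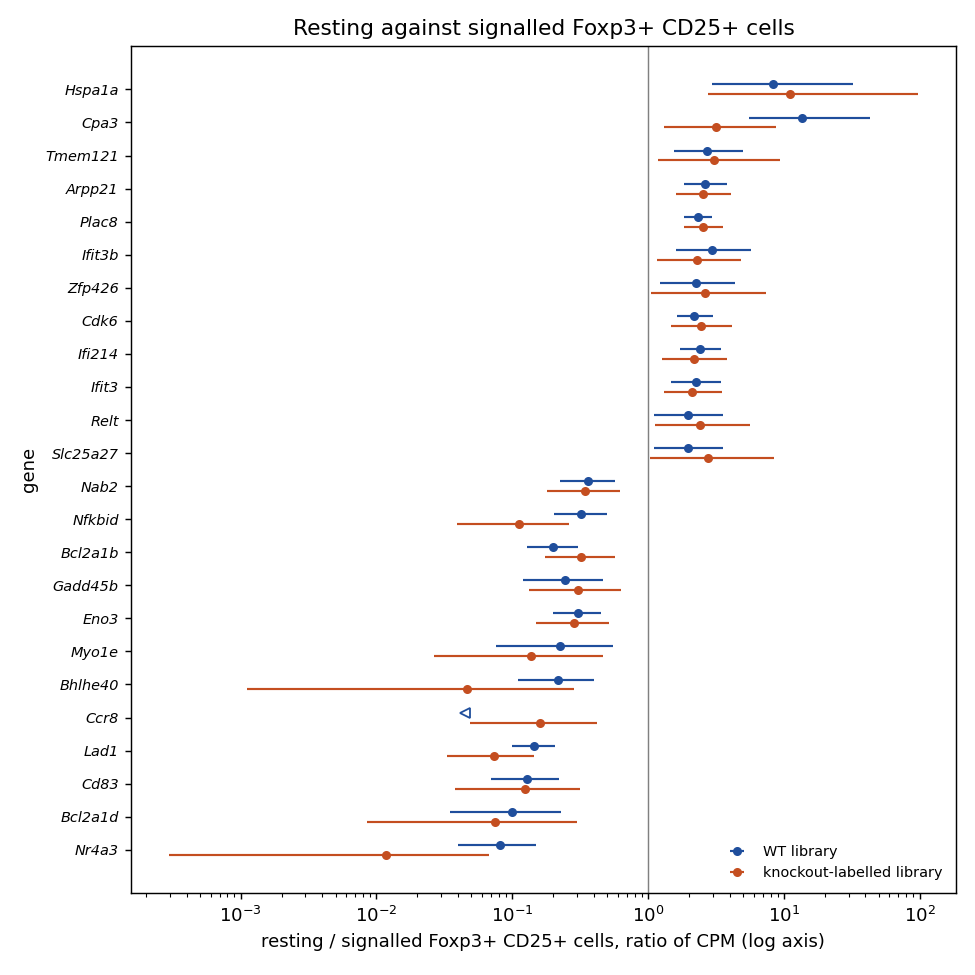
Ratio of CPM in resting over signalled Foxp3+ CD25+ cells (log axis) for 12 genes at each end of the ranking over both libraries, in the WT (blue) and knockout-labelled (orange) library, with 95% counting intervals; an open triangle is a bound from 0 UMIs. Nr4a3 lies furthest to the left, 12.3-fold and 84.6-fold lower in resting cells, and Ifit3 lies to the right at 2.25 and 2.12.

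Between the libraries, members of the knockout-labelled one were compared with WT members. In members 6.98% of 6795 genes were higher in the knockout-labelled library and 10.6% lower. In all other cells of the 2 libraries, which hold far more UMIs, 1.73% of 7100 genes were higher and 2.06% lower. A gene whose ratio is as large in the other cells is not particular to the members.

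Of 14 Treg genes that entered, none was higher and 1 lower in knockout-labelled members (median log2 ratio -0.07, against -0.05 over all genes). That gene was Nrp1, at 31.6 against 54.8 CPM (1.74-fold lower, 1.01 to 3.13). Ctla4 was at 347 against 372 CPM (ratio 0.93, 0.78 to 1.11), Il2rb at 507 against 425 CPM (1.19, 1.02 to 1.39) and Gpr83 at 172 against 186 CPM (0.92, 0.72 to 1.18). Ikzf2 was at 377 against 549 CPM (ratio 0.69, 0.58 to 0.80), short of 1.5-fold. Of 15 IL-2 and STAT5 genes, 1 was higher (Socs3, 1.53-fold, 0.87 to 2.66) and none lower, or 1 (Socs2) without the early-gene cells, and Cish was at 287 against 206 CPM (ratio 1.40, 1.13 to 1.72). Klf2 was at 866 against 997 CPM (0.87, 0.78 to 0.97) and S1pr1 at 280.5 against 375 CPM (0.75, 0.62 to 0.90). Over all genes in members 6.98% were higher and 10.6% lower, so few of a short list would be. No gene of the 7 co-inhibitory ones that entered differed by 1.5-fold. The 14 genes of the T cell receptor complex did not either, though Cd3e was higher without the early-gene cells, and Cd5, whose level follows receptor signal strength, was at 366 against 495 CPM (ratio 0.74, 0.63 to 0.87). Cd69, an early activation marker, was 1.53-fold lower (1.15 to 2.04), and at a log2 ratio of 0.60 when Cd4 and Trac were required.

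The same genes had other ratios elsewhere in the libraries. In all other cells Il2rb was at a ratio of 0.58 (0.53 to 0.63), Klf2 and S1pr1 were both at 0.40, Cd5 was at 0.53 and Nrp1 at 1.56. Ctla4 was at 0.91 there, Ikzf2 at 0.81, Cish at 0.73, Cd69 at 0.84 and Socs3 at 0.97, while Gpr83 did not reach 20 CPM. In signalled Foxp3+ cells Ikzf2 was at 0.64 of the WT level (0.57 to 0.73), Il2rb at a ratio of 1.39 (1.17 to 1.65) and Gpr83 at 1.58 (1.2 to 2.08).

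Penk (chromosome 4, 4133531 to 4138819), which encodes the opioid precursor proenkephalin, had the highest ratio among the ranked genes, which hold at least 50 UMIs over both libraries. It was at 84.1 CPM in knockout-labelled members (48 UMIs) and 12.5 CPM in WT members (13 UMIs), 6.74-fold higher (3.59 to 13.6), and 2.90-fold higher in signalled cells (1.45 to 5.99). In the other cells it did not reach 20 CPM. Without the early-gene cells the members' ratio was 6.99. Ly6c1, a surface antigen, was 3.37-fold higher in knockout-labelled members (2.39 to 4.81) and 5.13-fold higher in signalled cells (3.17 to 8.57), against 1.24-fold in the other cells. Igfbp4, an insulin-like growth factor binding protein, was 2.58-fold higher in members (1.82 to 3.68) but at 0.63 of the WT level in the other cells and at 0.88 in signalled cells. Lgals1, which encodes galectin-1, was 2.21-fold higher (1.80 to 2.72), against a ratio of 0.86 in the other cells, but short of 1.5-fold without the early-gene cells (1.46). Whether the members' ratios differ from those of other cells was not tested.

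Several other differences were as large in the rest of the library. Oas1a was 3.46-fold higher in members (1.93 to 6.38) and 3.74-fold in the other cells, Iigp1 3.16-fold (2.39 to 4.20) and 4.13-fold, and the cold-induced RNA binding genes Rbm3 and Cirbp 2.37-fold and 2.49-fold against 2.33-fold and 2.09-fold. H2-Q7 was 1.89-fold higher in members (1.54 to 2.32) and 4.46-fold in the other cells, while with cells weighted equally its log2 ratio in members was 0.55. Over the whole interferon list 1 of 9 genes was higher in members (median log2 ratio 0.26), 3 of 9 without the early-gene cells (0.43), and 3 of 8 in the other cells (0.44). Hspa8 was 4.55-fold lower in knockout-labelled members (347 against 1581 CPM, 3.93 to 5.30) and 5.18-fold lower in the other cells. Of the stress list, 4 of 10 genes were lower in members, 6 of 9 without the early-gene cells, and 5 of 11 in the other cells, with none higher.

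Of the 14 NF-kB genes, 4 were lower in knockout-labelled members and none higher (median log2 ratio -0.29), and in the other cells 1 of 12 was lower. Nfkbid was at 10.5 against 26.9 CPM (2.56-fold lower, 1.04 to 7.56), from 6 and 28 UMIs, and at ratios of 1.13 in signalled cells and 0.83 in the other cells. Scin, which encodes an actin-severing protein, was 7.40-fold lower (2.73 to 28.1) and 3.68-fold lower in the other cells, but was below 20 CPM in members without the early-gene cells. Cell cycle genes depended on the same cells. Of 9 that entered, 5 were higher in knockout-labelled members, and Pclaf was at 73.6 CPM against 1.92 CPM (42 and 2 UMIs). Without the early-gene cells 5 entered, none higher and 2 lower.

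**Figure D4:**
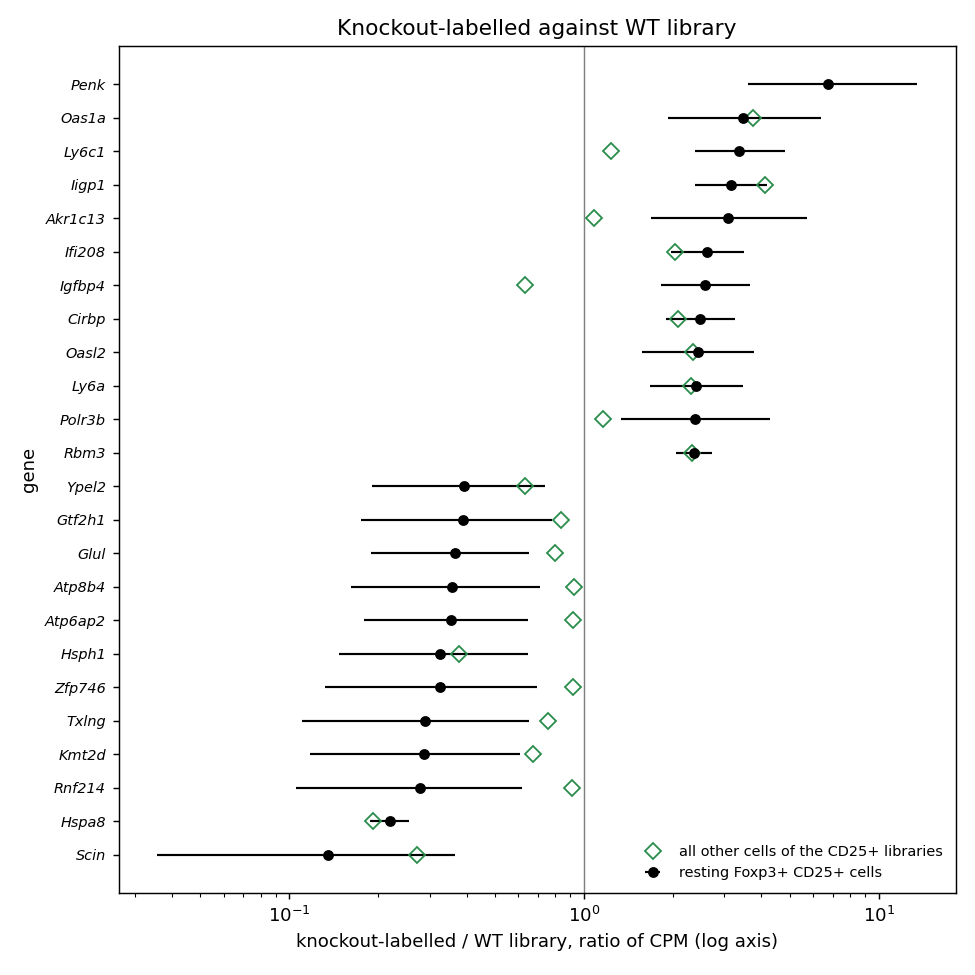
Ratio of CPM in the knockout-labelled over the WT library (log axis) for 12 named genes at each end of the ranking in resting Foxp3+ CD25+ cells (black, 95% counting intervals), with the ratio in all other cells of the CD25+ libraries (green diamonds, none where a gene was under 20 CPM). Oas1a, Iigp1, Rbm3 and Hspa8 have a diamond close to the members' point, while Ly6c1 and Igfbp4 have theirs near or below 1 and Penk has none.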

How the data were processed

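The authors deposited a matrix of raw UMI counts per gene and barcode for each library, made with the 10x Genomics Next GEM 5′ v2 kit per the labels' protocols. The submitters' processing notes give the build mm10 and Cell Ranger 6.2.1, whereas the matrix file headers give another version. Among the antibodies, the protocol names CD74 where the sample labels have CD73. The 4 libraries held 3577 to 10801 deposited barcodes. No per-sample column was left unused. The members, gene lists and comparisons were chosen with earlier results of these data known.

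For each population the UMIs of its cells were added and scaled to CPM. With 1 library per group no test was run, and all comparisons are of libraries. Levels have exact Poisson, ratios exact conditional binomial and shares exact Clopper-Pearson intervals at 95%. Reads were deduplicated to UMIs by the authors, and intervals and floors cover counting error only. A population with 0 UMIs was set at a floor of 3 for a bound, and no fold is given where that bound lies on the other side of 1. Genes entered at 20 CPM in either population. In comparisons within a library the named genes have at least 20 UMIs over both populations in each library and differ by at least 1.5-fold in the same direction in both libraries with both intervals excluding 1, ranked by the smaller log2 ratio: the 12 highest and 12 lowest. Between libraries they have at least 50 UMIs, an interval excluding 1 and the same direction with cells weighted equally, ranked by ratio. Left out of the ranking were mitochondrial and ribosomal protein genes, hemoglobins, Xist, Tsix and Y-linked genes, receptor segments and unnamed gene models. The genes of the member rule, and Cd4 and Trac, were left out too. A set of Treg, IL-2, maturation and response genes and the extremes of each list were always eligible. Other genes named, such as H2-K1, Srsf3, Hnrnpa3, Socs1, Irf7, Btla and Lgals1, were chosen after their values were seen. Some members of the lists are not reported here by name. Immunity-related GTPases, class I and Ly6 genes have near-identical copies, so their counts are uncertain.

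Doublets were scored with Scrublet in scanpy 1.11.5, marking 0.8% per 1000 barcodes. They were kept in the main values (7 of 243 WT and 5 of 130 knockout-labelled members were marked, against 6.57% and 8.09% of all barcodes) and removed as an alternative. Of the members, 6 WT and 3 knockout-labelled barcodes occur in another library. Positions are from GENCODE vM21, and promoters are from RefSeq (GRCm38.p6). Python 3.11.15, NumPy 2.4.6, SciPy 1.17.1, pandas 2.3.3 and Matplotlib 3.10.9 were used, and the scripts were tested on simulated data. The alternatives were doublet removal, a stricter cell filter (1000 genes, 5% mitochondrial UMIs), at least 2 Foxp3 UMIs, a 7-gene response limit, thinning to 1500 UMIs before the rule, members with Cd4 and Trac, Foxp3-negative cells with Cd4 or Trac, 3 scalings, other minimum levels (50 CPM, or 1 UMI) and a 2-fold limit. Leaving out cells with 3 or more Rag1 and Dntt UMIs, and the comparison with all Foxp3-negative cells were added after seeing the data.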

Additional observations from a re-analysis of the deposited data

Results flagged for a closer look

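The CD25- libraries were not part of the comparisons, and each held cells that met the member rule. In the WT CD25- library 1 of 3118 kept barcodes met it, and in the knockout-labelled CD25- library 1 of 1767 did. A single barcode in a library says nothing of a difference between them.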

How the results depend on the processing

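No paired analysis was possible because each group is 1 library. Over 350 gene ratios and 3246 recomputations, the settings listed first left 1848 within the counting interval, moved 200 outside it and turned the sign of 31. Those added after seeing the data left 1065, moved 97 and turned 5. A turned sign was counted only where the main ratio was at least 1.5-fold in either direction, so sign changes of smaller ratios are among the others. The resting share of Foxp3+ CD25+ cells was 46.2% in WT and 48.1% in knockout-labelled cells with the 7-gene limit, 74.2% and 75.7% after thinning, and 43.7% and 36.4% with Cd4 and Trac required. The members' share of kept WT barcodes was 2.17% at 2 Foxp3 UMIs, 2.45% with the 7-gene limit, 1.83% thinned and 0.463% with Cd4 and Trac. In the knockout-labelled library it was 0.920% at 2 Foxp3 UMIs, 0.818% thinned and 0.119% with Cd4 and Trac, where the ratio between libraries fell to 0.257 from 0.435. Genes at least 1.5-fold apart moved with the number of cells and with the level needed to enter. Against resting Foxp3-negative cells they were 1589 at 50 CPM and 1680 at 2-fold in WT and 1912 at 2-fold in knockout-labelled cells. Against all Foxp3-negative cells they were 1842, 4992 and 1427 (50 CPM, no minimum, 2-fold) in WT and 2297, 5822 and 2239 in knockout-labelled cells. Resting against signalled they were 3317 thinned, 3105 with Cd4 and Trac, 447 at 50 CPM, 3473 with no minimum and 293 at 2-fold in WT, and 3649, 2980, 601, 3568 and 522 in knockout-labelled cells. Between the libraries they were 3006 thinned, 2885 with Cd4 and Trac, 359 at 50 CPM, 3460 with no minimum and 341 at 2-fold. The share higher in members against resting Foxp3-negative knockout-labelled cells was 24.2%, but 45.3% with Cd4 or Trac and 34.9% at 50 CPM. Resting against signalled it was 29.3% thinned in knockout-labelled cells, and between libraries 51.1% thinned and 50.2% with no minimum, against 39.8%.

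These log2 ratios, all at least 1.5-fold in the main values, changed sign, and the cause was not tested. With the 7-gene limit, resting against signalled, they were Hspa1a -2.82 and Tmem121 -0.16 in WT and Hspa1a -1.31 in knockout-labelled cells. After thinning they were Socs2 -0.15 in WT, and Ifit3b -2.64, Ifi214 -0.64, Ifit3 -0.64, Ifit1 -1.10, Irf7 -0.50, Slc25a27 -0.64 and Egr1 0.68 in knockout-labelled cells; between libraries they were Zfp746 0.60 and Gtf2h1 0.18. With Cd4 and Trac required, resting against signalled, they were Arpp21 -2.40, Plac8 -0.35, Cdk6 -1.45 and Egr1 0.76 in WT and Ifit3b -0.42, Ifit3 -1.74, Gadd45b 0.75 and Cd69 0.51 in knockout-labelled cells. With the same limit they were Tnfrsf1b -0.10 and Il7r -1.16 against resting and all Foxp3-negative knockout-labelled cells, and Oasl2 -1.31, Ly6a -1.62 and Cd69 0.60 between libraries. Against resting Foxp3-negative knockout-labelled cells, Cd24a was -2.63, Cd5 0.46 and Itm2a 0.45 with Cd4 or Trac, Cd24a -0.85 without early-gene cells, and Egr1 0.43 with cells weighted equally. In WT without early-gene cells, Plac8 was -0.26 against signalled cells, and Elof1 and Pebp1 were 0.26 and 0.34 against resting Foxp3-negative cells, where Elof1 was 0.66 without doublets and 0.10 with the 7-gene limit. Thinning before the rule left too few Foxp3-negative cells for a value. Depth limits most the 6 knockout-labelled Foxp3-negative resting cells, where 1 UMI is 36.9 CPM.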
